A study of Mus musculus with 2 samples.

Results

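The miR-34 and miR-449 miRNAs form a family that shares a seed, the short stretch at the 5′ end by which a miRNA pairs with its target transcripts. The members described here are the miRNAs that the array names mmu-miR-34a, mmu-miR-34b-3p, mmu-miR-34b-5p, mmu-miR-34c and mmu-miR-449a. They were chosen by name, and they are 5 of the 696 mouse miRNAs on the array. The miR-34 genes are direct targets of the transcription factor p53, and their miRNAs repress regulators of cell cycle entry and survival, such as cyclins, cyclin-dependent kinases and Bcl2. miR-34a is transcribed alone in many tissues, whereas miR-34b and miR-34c are processed from a shared transcript. miR-449a lies in an intron of Cdc20b and is best known from epithelia with motile cilia, where it acts together with the miR-34 miRNAs.

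Expression was measured on Agilent 1-colour miRNA microarrays in ICR mouse embryos without treatment at E13.5, when the mammary epithelium forms a bud within its mesenchyme. The 3rd mammary gland was compared with the inter mammary gland region, which lies between that gland and the 4th. They are called the gland and the flank from here on. RNA of each region (100 ng of total RNA) received the dye Cy3 and was hybridized to 1 array, and the number of embryos behind each RNA is not stated in the sources used here. Both arrays lay on the same slide and were read in the same scan. The differences could not be checked on replicates or tested with 1 array per region, and this number of arrays limits their precision. Every error given here is a spread over the spots of an array and is technical only.

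Each member is read by 2 probes with 10 spots each, so the family has 100 of the 13920 miRNA spots on an array. Signals are background-subtracted spot intensities in arbitrary units, and they can be negative. Detection was called for a probe if over 50% of its spots were marked well above background, and for a miRNA if this held for 1 or more of its probes. Negative control spots, which carry no miRNA probe, averaged 3.81 ± 5.28 (SD, 432 spots) in the gland and 2.23 ± 5.07 (SD, 428 spots) in the flank. The brightest of them reached 17.3 and 19.2. For the comparison, signals were scaled to the 75th percentile over the probes that both arrays detected, and expressed in units of the flank array. This percentile was 1.09 times as high in the gland, so scaling lowers the signals of that region by this factor.

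Mature sequences of 4 of the 5 members were found in the RefSeq table of GRCm38.p6. They are shown because the shared seed, bases 2 to 8 in capitals, is what makes these miRNAs a family, and because it separates the arms of miR-34b.
mmu-miR-34a-5p: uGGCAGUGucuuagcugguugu
mmu-miR-34b-5p: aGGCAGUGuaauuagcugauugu
mmu-miR-449a-5p: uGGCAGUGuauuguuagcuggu
mmu-miR-34b-3p: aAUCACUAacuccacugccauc
The array's mmu-miR-34a and mmu-miR-449a were matched to the 5p arms of their hairpins. The seed GGCAGUG occurred in 4 of the 1679 mature names of the table, namely these 3 members and mmu-miR-449c-5p. The table has no mature sequence for the 5p arm of mmu-miR-34c, the remaining member, or for mmu-miR-449b. This count therefore cannot include them. Much of the sequence after base 8 is shared as well, at shifted positions. In mmu-miR-34b-5p it lies 1 base further from the 5′ end than in mmu-miR-34a-5p, and with this shift 11 of 14 overlapping positions after base 8 were identical, against 4 of 14 without it. In mmu-miR-449a-5p it lies 3 bases further than in mmu-miR-34a-5p, with 10 of 11 identical, against 7 of 14 without the shift. These shifts gave the most identical positions among those of up to 4 bases. mmu-miR-34b-3p, from the other arm of the miR-34b hairpin, has the seed AUCACUA, which 2 names of the table carry, the other being mmu-miR-34c-3p.

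The genes lie on 3 chromosomes in GRCm38.p6. mmu-miR-34a-5p is encoded on the plus strand at chr4:150068473-150068494, in a place where the RefSeq annotation has no overlapping gene. The arms of miR-34b are encoded on the minus strand at chr9:51103610-51103632 for mmu-miR-34b-5p and chr9:51103574-51103595 for mmu-miR-34b-3p. The spans of Hoatz and Btg4 overlap both Mir34b and Mir34c. mmu-miR-449a-5p is encoded on the plus strand at chr13:113037549-113037570, within the span of Cdc20b, as are Mir449b and Mir449c.

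Of the 5 members, 3 were detected in the gland (mmu-miR-34a, mmu-miR-34b-5p and mmu-miR-34c) and 2 in the flank (mmu-miR-34a and mmu-miR-34b-5p). mmu-miR-34b-3p and mmu-miR-449a passed this rule in neither region. Over the array 296 of 696 miRNAs (42.5%) were detected in the gland and 300 (43.1%) in the flank. None of the 3 detected members differed by 1.5-fold or more between the regions with the main scaling, although mmu-miR-34c did with some others, as given with its values. Over the array, 312 miRNAs were detected in at least 1 region, of which 10 (3.21%) were at least 1.5-fold higher in the gland and 38 (12.2%) at least 1.5-fold lower. These counts depend on the scaling: 23 were higher and 34 lower without it, 28 and 33 when it used the 75th percentile over all probes, and 21 and 33 after quantile normalization. A count of 0 among 3 members is not a result about the family beside such shares.

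mmu-miR-34a, which p53 induces in many cell types, was expressed at nearly equal signal in both regions. All 20 of its spots were well above background on each array. Its signal was 257 in the gland and 226 in the flank before scaling, and 235 and 226 after it. The quotient was 1.04, a log2 value of 0.05 ± 0.05 (SE over spots), so with the main scaling the difference was about the size of its technical error. Without scaling the log2 value was 0.18, and with the other scalings it ran from 0.15 to 0.21. It was -0.0067 where every spot of a probe had to be well above background. Probe 1 gave 194 ± 15.5 (SD, 10 spots) in the gland and 167 ± 14.9 (SD, 10 spots) in the flank before scaling. Probe 2 gave 321 ± 37.2 and 285 ± 24.4 (SD, 10 spots each). After scaling, the spots of probe 1 ran from 148 to 197 and from 140 to 188, and those of probe 2 from 244 to 341 and from 241 to 319, so the regions overlapped at both probes. The quotients of the probes after scaling were 1.06 and 1.03. At the same positions on the arrays, 20 of 20 spots were brighter in the gland before scaling and 15 of 20 after it. In bulk RNA, fewer cells that express a miRNA and less of it per cell cannot be told apart, and this holds for every value given here.

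The difference in mmu-miR-34a was also that of the typical miRNA. Across the 284 miRNAs detected in both regions the median log2 quotient was 0.05, and mmu-miR-34a lay 0.01 above it. A scaling by 1 factor per array shifts both alike and leaves this distance as it is, and after quantile normalization it was -0.02.

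mmu-miR-34b-5p, the 5p arm of the miR-34b hairpin, was dim, and was detected in both regions by the rule on spots and by the software's call, but in neither with every spot of a probe required. After scaling its signal was 28.4 in the gland and 24.9 in the flank, a quotient of 1.14 and a log2 value of 0.19 ± 0.09 (SE over spots). Detection rested on probe 2, which had 9 of 10 spots well above background in the gland and 7 of 9 in the flank. This probe gave 38.9 ± 6.30 (SD, 10 spots) and 32.0 ± 3.28 (SD, 9 spots) before scaling, and a quotient of 1.11 after it. Probe 1 was not detected in either region, with 2 of 10 and 0 of 10 spots well above background. Its means were 23.3 ± 7.20 and 17.7 ± 5.70 (SD, 10 spots each), and 8 and 5 of its 10 spots exceeded every negative control spot of their array. After scaling 13 of 19 positions were brighter in the gland, and the spots of the regions overlapped at both probes.

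mmu-miR-34b-3p, cut from the other arm of the same hairpin, stayed within the range of the negative control spots, except for 1 spot of probe 1 in the flank that lay below it. Its probes averaged 2.36 ± 2.95 (SD, 9 spots) and 4.00 ± 5.97 (SD, 10 spots) in the gland. In the flank probe 1 averaged -2.10 ± 4.77 (SD, 10 spots), and probe 2 averaged -0.0032 ± 4.43 (SD, 10 spots). None of its 19 and 20 spots was well above background, and 0 exceeded the brightest negative control spot of its array. By the rule on spots and the software's call the 5p arm of miR-34b was thus detected in both regions and the 3p arm in neither, while with every spot required neither arm was. The arms are read by different probes, whose signals do not compare as RNA amounts. No fold is given for the 3p arm.

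mmu-miR-34c, which shares its transcript with miR-34b, was the member detected in the gland only by the rule on spots. The software called it detected in both regions, and with every spot of a probe required it was detected in neither. After scaling its signal was 25.3 in the gland and 18.1 in the flank. Probe 2 had 8 of 10 spots well above background in the gland and 1 of 9 in the flank, so the call in the gland rested on this probe. Its means before scaling were 34.3 ± 6.46 (SD, 10 spots) and 23.4 ± 3.96 (SD, 9 spots), and 10 of 10 and 7 of 9 spots exceeded every negative control spot. Probe 1 had 1 of 9 and 0 of 10 spots well above background, with means of 21.0 ± 4.85 (SD, 9 spots) and 12.8 ± 2.97 (SD, 10 spots). Of these spots, 8 of 9 and 0 of 10 exceeded every negative control spot. Both probes were thus brighter in the gland, as were 16 of 18 positions both before and after scaling, while the highest spots of the flank still overlapped the lowest of the gland.

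The quotient of the signals of mmu-miR-34c was 1.40, a log2 value of 0.48 ± 0.09 (SE over spots). It is a quotient of measured signals, and not a fold with a bound, because the dimmer signal was not well above background. Probe 2, which was detected in the gland only, had a scaled signal of 31.4 there and 23.4 in the flank. The lowest single detected probe in the flank had a signal of 27.1, and 31.4 is 1.16 times that. This value is not a lower limit of the fold, since 27.1 is only the dimmest probe that met the rule on spots. Probe 2 was picked by its detection in the gland, so the value is no separate evidence of a difference. It was computed after the data were seen. The counts over the array used the dimmest detected miRNA in the flank (9.23) as floor, which is under the 18.1 of mmu-miR-34c there, so its quotient of 1.40 entered them. The side of 1.5-fold depended on the scaling. The quotient was 1.53 without scaling, 1.56 when scaled to the 75th percentile over all probes and 1.51 when scaled to the median over those that both arrays detected, and it was 1.49 after quantile normalization. After the normexp background correction, which adds an offset of 50 to every spot, it was 1.09.

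Other miRNAs with signals this low were set beside mmu-miR-34b-5p. A further 44 miRNAs that were detected in both regions had a mean scaled signal between 10 and 40, limits chosen after the values were seen. Their log2 quotients ran from -0.99 to 0.68, with a median of 0.04 and quartiles of -0.15 and 0.26. The value of mmu-miR-34b-5p, 0.19, lay between the quartiles. mmu-miR-34c was not placed among these miRNAs, because it was not detected in the flank by the rule on spots.

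mmu-miR-449a was close to the limit of detection in both regions. After scaling its signal was 14.9 in the gland and 14.1 in the flank. Probe 2 had 2 of 10 and 1 of 10 spots well above background, with means of 21.9 ± 5.32 and 20.6 ± 5.43 (SD, 10 spots each) before scaling. Most of its spots, 7 of 10 and 6 of 10, exceeded every negative control spot, so this probe read a weak signal in both regions that did not meet the rule for detection. Probe 1 gave 10.74 ± 3.73 (SD, 10 spots) and 7.51 ± 5.53 (SD, 9 spots), with 0 spots above the brightest negative control in either region. Across both probes 11 of 19 positions were brighter in the gland after scaling. No fold is given, since neither signal was well above background.

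**Figure D1:**
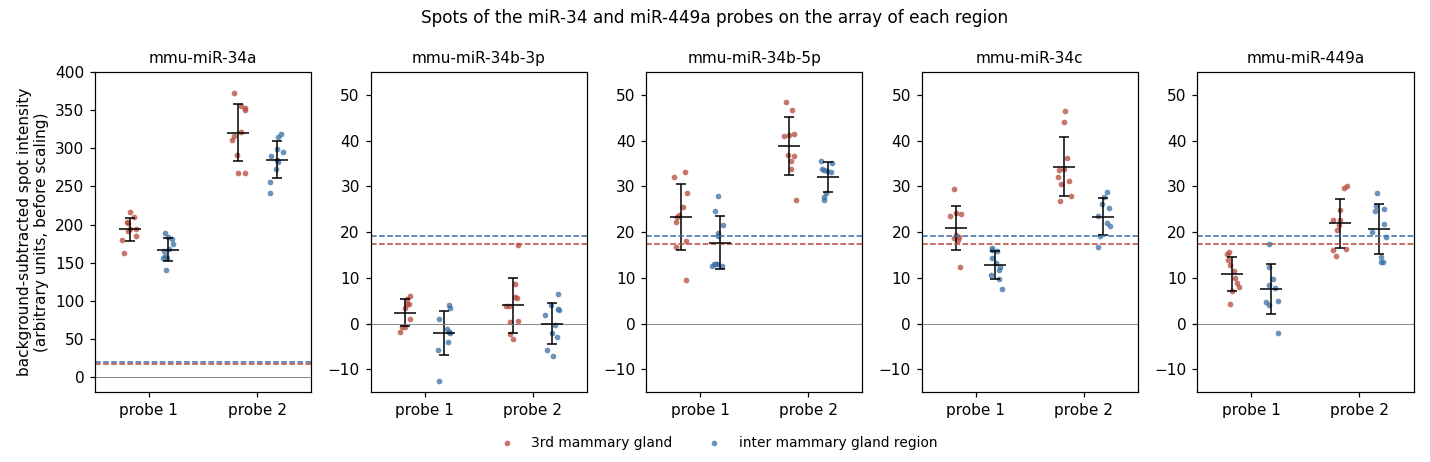
Background-subtracted intensity before scaling (arbitrary units, linear axis) of each spot of the 2 probes of each member from the 3rd mammary gland (red) and the inter mammary gland region (blue), with black bars for the mean and SD over spots and dashed lines at the brightest negative control spot of each array (17.3 and 19.2). The spots of mmu-miR-34a, on an axis of its own, lie far above these lines, those of mmu-miR-34b-3p lie under them, and probe 2 of mmu-miR-34c averages 34.3 and 23.4.

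The array also carries the other arm of miR-34c and the remaining miR-449 miRNAs, which are not among the members. mmu-miR-449c-5p carries the family seed, and the sequence of the miR-34c 3p arm, named mmu-miR-34c* on the array, carries the seed of mmu-miR-34b-3p.
mmu-miR-449c-5p: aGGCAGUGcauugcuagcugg
mmu-miR-34c-3p: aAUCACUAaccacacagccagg
They are shown because each is close in sequence to a member: mmu-miR-449a-5p and mmu-miR-449c-5p were identical at 18 of 21 positions, and mmu-miR-34b-3p and mmu-miR-34c-3p at 17 of 22. mmu-miR-449b, mmu-miR-449c and mmu-miR-34c* had 0 spots well above background in either region, and 0 above the brightest negative control. Before scaling, mmu-miR-34c* averaged -4.02 in the gland and -5.06 in the flank. The means of mmu-miR-449b were 2.004 and -0.36, and those of mmu-miR-449c 0.47 and -0.995.

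Other miRNAs linked to p53 were set beside the family as a list of 8, written from textbook knowledge. In the gland 6 of them were detected and in the flank 5, and 0 were past 1.5-fold in either direction with the main scaling. Beside the array's 42.5% and 43.1% detected, 3.21% higher and 12.2% lower, a count of 0 among 6 is not a result about the list. The 5 detected in both regions had a median log2 quotient of 0.18, beside 0.05 for all 284 miRNAs and 0.05 and 0.19 for the members mmu-miR-34a and mmu-miR-34b-5p. mmu-miR-107, whose host gene is a p53 target, had signals of 1717 and 1418 after scaling, a log2 quotient of 0.28 ± 0.04 (SE over spots). mmu-miR-143, whose processing p53 promotes, had signals of 177 and 148 and a log2 quotient of 0.25 ± 0.03. mmu-miR-15a and mmu-miR-16, which repress Bcl2 and cyclins from a shared transcript, had log2 quotients of 0.14 ± 0.02 and 0.18 ± 0.03. mmu-miR-192 had one of 0.14 ± 0.07. mmu-miR-194, which is clustered with miR-192, was, like mmu-miR-34c, detected in the gland only by the rule on spots and in both regions by the software's call. With every spot of a probe required, mmu-miR-194 was detected in the gland only and mmu-miR-34c in neither region. The signals of mmu-miR-194 were 29.1 and 20.01, and their quotient was 1.45 after scaling and 1.59 before it. As for mmu-miR-34c, this is a quotient of measured signals and not a fold with a bound. mmu-miR-145 and mmu-miR-215 were detected in neither region.

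**Figure D2:**
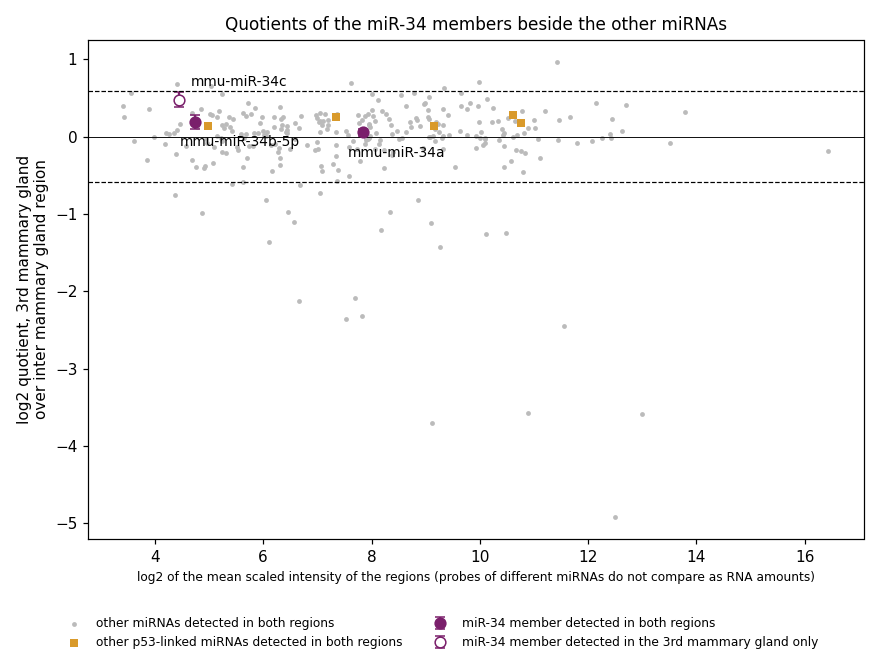
Log2 quotient of the signal in the 3rd mammary gland over that in the inter mammary gland region (vertical axis) against the log2 of the mean scaled intensity of the regions (horizontal axis), with 1 point per miRNA, error bars of 1 SE over spots for the members and dashed lines at 1.5-fold. mmu-miR-34a (0.05), mmu-miR-34b-5p (0.19) and mmu-miR-34c (0.48, open circle, detected in the 3rd mammary gland only) lie between the lines, as do the 5 other p53-linked miRNAs detected in both regions. With no scaling between the arrays mmu-miR-34c would be at 0.61, above the upper line. Apart from mmu-miR-34c, only miRNAs detected in both regions are drawn. Others detected in 1 region, such as mmu-miR-194 with a log2 quotient of 0.54, are left out.

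By the closeness of the log2 quotient, which over 2 arrays is a single value, the miRNAs most like mmu-miR-34a were mmu-miR-409-3p, mmu-miR-140 and mmu-miR-100, each at 0.06. Those most like mmu-miR-34b-5p were mmu-miR-218, mmu-miR-93 and mmu-miR-25, each at 0.19.

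The deposited total signals, which Feature Extraction sums over the probes of a miRNA, gave a larger difference for mmu-miR-34c than the spots did. The total was 36.6 in the gland and 15.2 in the flank, a quotient of 2.42. In all 335 and 334 miRNAs that the software called detected, the total equalled, within 0.1%, the sum of the probes whose own total exceeded 3 times its error. For mmu-miR-34c both probes entered the sum in the gland, with 13.9 and 22.7. In the flank only probe 2 did, with 15.2, while probe 1 had a total of 8.30 with an error of 3.72 and was left out. With both probes summed in both regions the totals were 36.6 and 23.5, and the quotient was 1.56 before the totals were scaled and 1.36 after. These sums were chosen after seeing the data.

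For the other members the totals held the same probes in both regions. The totals of mmu-miR-34a were 340.5 and 293, a quotient of 1.16 before scaling, and those of mmu-miR-34b-5p were 41.2 and 32.2, a quotient of 1.28. mmu-miR-449a was called detected by the software in both regions from probe 2 alone, with totals of 14.5 and 13.4. mmu-miR-34b-3p was listed at 0.1 in both, the value the software gives to a miRNA it does not call detected. By the software's call 4 of the 5 members were therefore detected in each region.

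Marker miRNAs of several cell types were used to check the labelled regions. Epithelial miRNAs were detected in both regions, 7 of 7, with summed signals after scaling of 10010 in the gland and 9530.1 in the flank, and the brightest signal was that of mmu-miR-205. Their median log2 quotient was 0.34, with a range from -0.31 to 0.51. The miRNAs of striated muscle, detected 4 of 4, had summed signals of 1504 and 3610, log2 quotients from -1.43 to -1.12, and mmu-miR-133b as the brightest. Blood miRNAs, 4 of 4, summed to 5477 and 4124, with mmu-miR-451 as the brightest at a log2 quotient of 0.44. Their log2 quotients ran from -0.39 to 0.44 with a median of 0.02, and 2 of 4 were above 0, so the difference in the sum was not shared by the list. The endothelial pair of miR-126 arms summed to 1974 and 1896. Of the 3 neural miRNAs, 0 were detected by the rule on spots, and the software called 2 of them, mmu-miR-9 and mmu-miR-137, in the gland and 0 in the flank. Their scaled signals in the gland and the flank were 14.3 and 6.92 for mmu-miR-9, 20.6 and 9.73 for mmu-miR-137, and 2.88 and -0.19 for mmu-miR-124, of which the last lay within the spread of the negative controls in both regions. The part of these cell types in the signals of the miR-34 miRNAs was not tested.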

How the data were processed

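Spots were quantified by the authors with Feature Extraction software (10.7.3.1 in the file header). The deposited intensity of each spot is background-subtracted, linear and not normalized between arrays, and the deposited table of intensity totals equals the software's total per miRNA for all 696 miRNAs within 0.1%. The methods name GeneSpring GX for normalization without its settings. The regions were taken from the sample labels.

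Control spots and outlier spots (1.67% and 2.51% of miRNA spots) were left out, and 0 spots were saturated. Spots were averaged by probe, arrays were scaled as described, and probes were averaged by miRNA. Errors over spots were propagated by the delta method. For a miRNA detected on 1 array, the dimmer signal was raised, if lower, to that of the dimmest detected miRNA on its array before the fold was counted. Named miRNAs were the members, the p53-linked list, those sharing a seed, the 3 closest quotients to each member detected in both regions, and cell type markers. The members and lists were chosen with earlier results of these data known. Sequences and coordinates came from RefSeq tables of GRCm38.p6. Normexp used the median pixel signals, since the files hold no mean foreground signal. The steps were tested on simulated data. Alternatives covered scaling, signal column, detection, dim miRNAs, outlier spots, probes, background, floor and threshold. Software was limma 3.58.1 in R 4.3.3, and numpy 2.4.6, pandas 2.3.3 and matplotlib 3.10.9 in Python 3.11.15.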

Additional observations from a re-analysis of the deposited data

How the results depend on the processing

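No paired analysis was possible because there is only 1 array per region, and for the same reason no replicate could be left out. Log2 quotients of mmu-miR-34b-5p and mmu-miR-34c were above 0 in all 12 alternatives that gave a value for each and could move it, and that of mmu-miR-34a in 12 of 13; a further 2, the software's call and the filter on dim miRNAs, change detection only and cannot move a quotient. mmu-miR-34a ran to -0.0067 where all spots of a probe had to be well above background, which also changes the probes used for scaling. 0 alternatives put mmu-miR-34a or mmu-miR-34b-5p past 1.5-fold, and 6 did so for mmu-miR-34c. Scaling shifts all miRNAs together: the median log2 quotient of those detected in both regions was 0.05 with the main scaling, 0.18 with none, 0.21 for the 75th percentile over all probes, 0.17 for the median over probes that both arrays detected and 0.17 after quantile normalization. In that order of alternatives mmu-miR-34a was at 0.18, 0.21, 0.17 and 0.15, mmu-miR-34b-5p at 0.32, 0.35, 0.31 and 0.30, mmu-miR-34c at 0.61, 0.64, 0.60 and 0.57, and the median of the other p53-linked miRNAs at 0.31, 0.34, 0.30 and 0.38. After normexp mmu-miR-34b-5p was at 0.087 and mmu-miR-34c at 0.12. With total signals mmu-miR-34c was at 1.07 scaled and 1.27 unscaled. Unscaled totals put mmu-miR-34a at 0.22 and mmu-miR-34b-5p at 0.35, and unscaled sums of all probes put them at 0.22 and 0.35 and mmu-miR-34c at 0.64; the sums and the unscaled totals were chosen after seeing the data. The p53-linked median was 0.22 with the software's call, 0.12 with every spot required and 0.26 with outlier spots kept. The software's call moves no quotient, but under it mmu-miR-194 also counts as detected in both regions and enters that median. Apart from this entry, the shift of all miRNAs and the probes that enter the totals, the cause of these changes was not tested.

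The number of members detected was 1 in each region with every spot required, and 4 in each with the software's call, beside 3 and 2. The main counts of 10 miRNAs higher and 38 lower (20.8% higher) became 23 and 34 without scaling (40.4% higher), 28 and 33 for the 75th percentile over all probes (45.9% higher), 23 and 34 with the median (40.4% higher) and 21 and 33 with quantile normalization (38.9% higher). The counts were 27 higher and 47 lower with scaled totals, 22 and 43 with the software's call, 4 and 21 after normexp, and 4 and 26 at 2-fold. With the lowest single probe as floor the mean over the probes of mmu-miR-34c has no value, since its bound lies under 1. Leaving out dim miRNAs removed mmu-miR-34b-3p and mmu-miR-449a. Signals near the negative controls limit the precision for all members but mmu-miR-34a.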

Other observations

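The make-up of the total signals differed between the regions beyond mmu-miR-34c. Of the 323 miRNAs that the software called detected in both regions, 26 had totals that summed different probes. In 16 of them more probes entered the sum in the 3rd mammary gland, and 13 of these had a quotient of totals of at least 1.5 before scaling. With all probes summed in both regions 9 of the 16 did, and with scaled spot means 5 did. mmu-miR-194, from the p53-linked list, was among them, with totals of 42.2 from 2 probes in the 3rd mammary gland and 18.3 from 1 probe in the inter mammary gland region. Its quotient was 2.31 for the totals, 1.63 for the sums of all probes and 1.45 for the scaled spots. In the other 10 miRNAs more probes entered the sum in the inter mammary gland region. At least 1.5-fold lower in the 3rd mammary gland were 6 of these by the totals, and 4 by the sums of all probes or the scaled spots.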
